A study of Mus musculus with 6 samples.

Results

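Axon guidance ligands and receptors were read in mouse spinal cord RNA across 3 genotypes and 2 ages. The members were all genes of the array whose annotation gives exactly 1 symbol and whose symbol starts with Sema, Plxn, Slit, Robo, Efna, Efnb, Epha or Ephb, or is Nrp1, Nrp2, Ntn1, Dcc or Unc5c. This rule found 44 genes with 57 probe sets, out of 8251 named genes. They were 16 semaphorins, 5 plexins, the neuropilin Nrp1, the netrin Ntn1, the netrin receptors Dcc and Unc5c, Robo1 and Robo3, 5 ephrin-A and 3 ephrin-B genes, 7 EphA receptors and 2 EphB receptors. Other genes that the rule names were not analysed here. The probe set with the highest mean over the arrays stands for its gene.

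Each of 6 Affymetrix arrays held pooled RNA of 4 spinal cords and was hybridised once, so every genotype and age has 1 array and no replicate of its own. Nontransgenic mice (strain label B6SJL) carried no transgene. WT-SOD1 mice (B6SJL-WT-SOD1 at 75 days, with no strain label at 110 days) carried wild-type SOD1. G93A-SOD1 mice (B6SJL-G93A-SOD1 at 75 days, B6SJL-G93A-SOD1H at 110 days) carried the G93A mutant of this superoxide dismutase, a variant that causes inherited motor neuron disease in people. By the submitters' account G93A-SOD1 mice had no symptoms yet at 75 days and were trembling and partly paralysed at 110 days, whereas WT-SOD1 mice stayed healthy. The sources used here give neither the promoter of the transgenes nor the sex of the mice. The 2 arrays of an age without disease, nontransgenic and WT-SOD1, are called disease-free. RNA was pooled from whole cord, so fewer cells of a type and less RNA per cell cannot be told apart.

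Axon guidance cues steer growing axons by attraction or repulsion. Semaphorins signal through plexins, with neuropilins as co-receptors for the secreted class 3 members. Netrins attract through Dcc and repel through Unc5 receptors, and Slits repel through Robo receptors. Ephrins and Eph receptor kinases are both bound to cell membranes and signal in both directions, the ephrin-A ligands through a lipid anchor and the ephrin-B ligands through a transmembrane domain. In the adult cord many of these genes stay on in neurons, glia and vessels, and several are studied as inhibitors of axon regrowth.

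The deposited values are 1 intensity per probe set and array. Values under the 25th percentile, an intensity of 31, were raised to this floor, and log2 was taken. The test covered the 6737 probe sets that exceeded the pooled median of 79.7 on 1 array or more. Of the 44 genes 28 passed this filter, and 23 of these lay above the pooled median on all 6 arrays. None of the 28 passed it only through a G93A-SOD1 array. Differences were tested with limma, adjusted by Benjamini-Hochberg over all of these probe sets, and each SE is limma's moderated one. Its spread comes from the gap between nontransgenic and WT-SOD1 at each age, and G93A-SOD1 arrays, having no partner, are taken to vary as much. Its p-values therefore do not measure the spread between animals of 1 group.

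Median intensity per array lay between 77.6 and 80.9. Sod1 read 1037 and 1498 on the nontransgenic arrays and 1583 to 1906 on the 4 transgenic ones. Nervous tissue, though not cord in particular, was borne out by neuronal Snap25 (2371 to 3297), the myelin gene Mbp (3109 to 4304) and the astrocyte gene Gfap (1583 to 4442). Of the motor neuron markers, Slc18a3 read 160.2 to 209.8 and Prph 132.5 to 160.7, while Isl1 lay under the floor on every array. Spike-in control RNA stood apart on 2 arrays, nontransgenic at 75 days (mean 631) and WT-SOD1 at 110 days (834), and lay at 351 to 457 elsewhere. Summed intensity of 5 cerebellar markers was also highest there (2160 and 2704), with 1394 for nontransgenic at 110 days, 992.5 for WT-SOD1 at 75 days, and 697 and 779 for G93A-SOD1.

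The main comparison asked which guidance genes differed in the diseased cord at 110 days. Of the 28 tested members 1 was called lower, Sema7a, and 0 were called higher. Over all tested probe sets 1.51% were called, 1.38% higher and 0.134% lower. The highest values, none of which passed, were those of the semaphorin co-receptor Nrp1, the plexin Plxnb2 and the semaphorin Sema4d. The difference was small for most members: 21 of 28 had a log2 value between -0.20 and 0.20, as did 70.4% of all tested probe sets. The median over the tested members was 0.04, and over all tested probe sets -0.02, with 16 of 28 members above 0 against 44.9% of all tested probe sets. For 26 of the 27 members that were not called, the 95% interval of the difference lay between -1 and 1, with Nrp1 as the exception (upper bound 1.09). These intervals rest on the gap between nontransgenic and WT-SOD1, not on the spread between animals, so they do not exclude a 2-fold change.

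**Figure D1:**
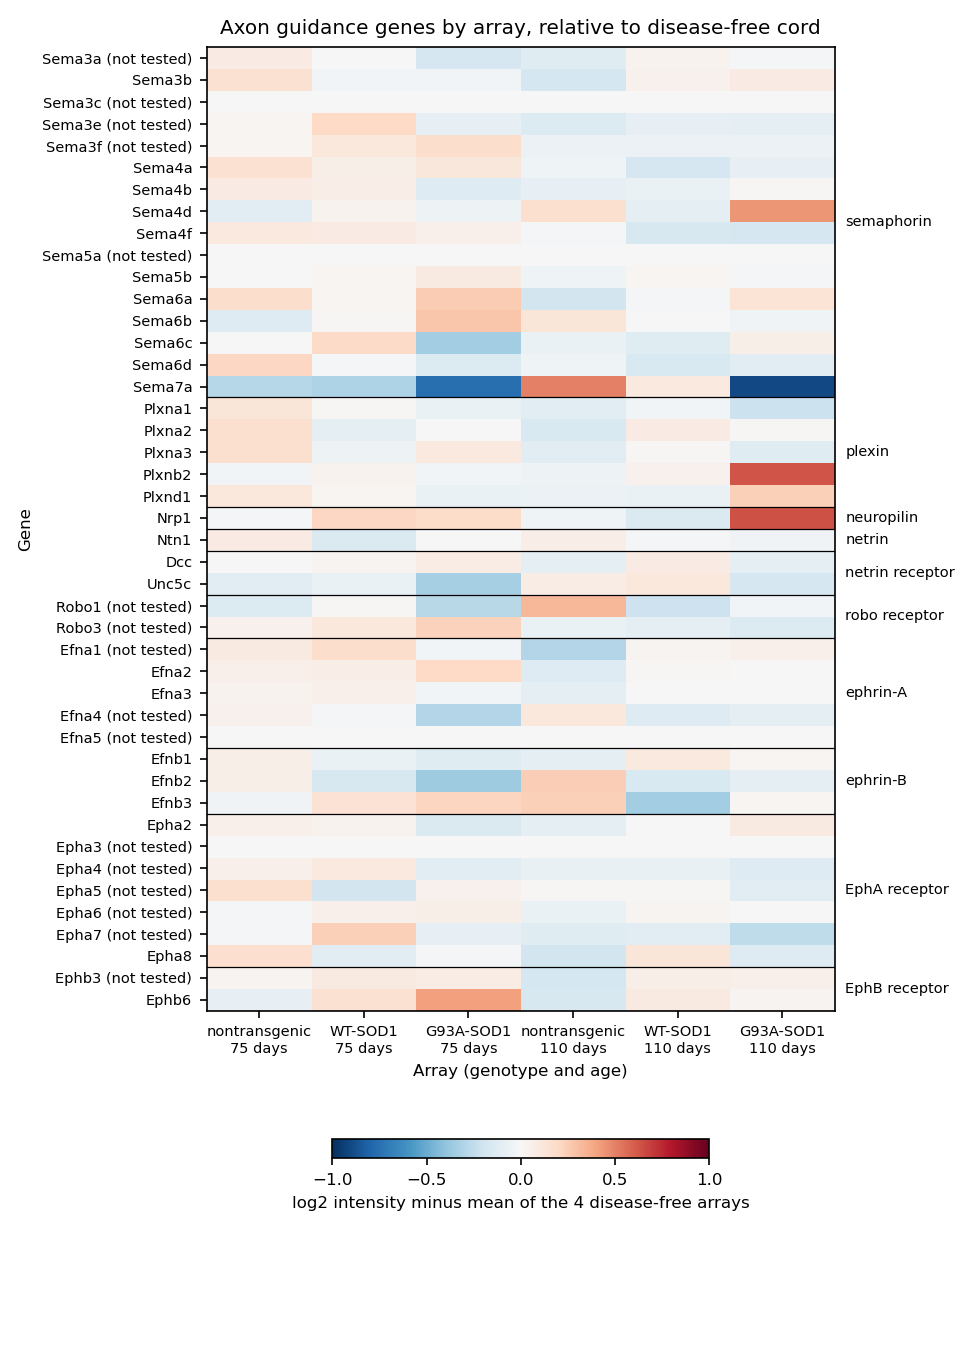
Heat map of the 44 guidance genes (rows, grouped by role) on the 6 arrays (columns). Colour gives log2 intensity after flooring minus the mean of the 4 disease-free arrays. Sema7a is darkest blue on the G93A-SOD1 arrays, and Nrp1, Plxnb2 and Sema4d are red on the G93A-SOD1 array at 110 days, while most other rows stay pale.

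Sema7a encodes a semaphorin that is held to the membrane by a lipid anchor. Its intensity was 284 on the nontransgenic, 279 on the WT-SOD1 and 206 on the G93A-SOD1 array at 75 days. At 110 days it was 490, 371 and 186 on the same genotypes. Both G93A-SOD1 arrays lay below all 4 disease-free arrays. Between 75 and 110 days the disease-free readings rose, while the G93A-SOD1 reading went from 206 to 186. At 110 days the G93A-SOD1 level was 0.379 of the nontransgenic and 0.50 of the WT-SOD1 level. The log2 difference from disease-free cord was -1.20 ± 0.18 SE (95% interval -1.63 to -0.77, limma adjusted p = 0.0248). At 75 days it was -0.45 ± 0.18 SE (adjusted p = 0.499). The change of this difference between the ages was -0.75 (adjusted p = 0.657), so the larger difference at 110 days was not shown to differ from that at 75 days.

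Another probe set of Sema7a, 97794_at, read 97.3, 89.8 and 107 on the nontransgenic, WT-SOD1 and G93A-SOD1 arrays at 75 days and 79.8, 94.9 and 96.1 at 110 days. Here the G93A-SOD1 array was the highest of its age at both ages, and the log2 difference at 110 days was 0.14 ± 0.16 SE (limma adjusted p = 0.934). The lower level of Sema7a in G93A-SOD1 cord therefore rests on probe set 93411_at alone. The sources used here do not say which transcripts each probe set detects. The call on 93411_at was kept without the G93A-SOD1 75-day array. Leaving out a disease-free array leaves 1 at its age, so no result is read from the call in those settings. The call was lost with arrays scaled to 1 median (adjusted p = 0.082), a floor at the 40th percentile (0.0797) and no filter on level (0.46). The log2 difference stayed between -1.40 and -0.999 under all 13 alternatives.

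Neuronal markers moved on the same array. Of 8 neuron markers 1 was called lower at 110 days, the neurofilament gene Nefm. The log2 differences of the 8 ran from -1.26 for Syt1 to -0.25 for Tubb3. Their summed intensity was 8009 on the G93A-SOD1 array against 9973 to 11550 on the disease-free ones. At 75 days the sum was 9197. Their part in the Sema7a result was not tested. The summed cerebellar markers were also lowest on the G93A-SOD1 arrays, at 697 beside a Sema7a intensity of 206 at 75 days and 779 beside 186 at 110 days. On the disease-free arrays the sums were 2160 and 992.5 beside Sema7a values of 284 and 279 at 75 days, and 1394 and 2704 beside 490 and 371 at 110 days, for nontransgenic and WT-SOD1 in turn. Their part in the Sema7a result was not tested either.

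**Figure D2:**
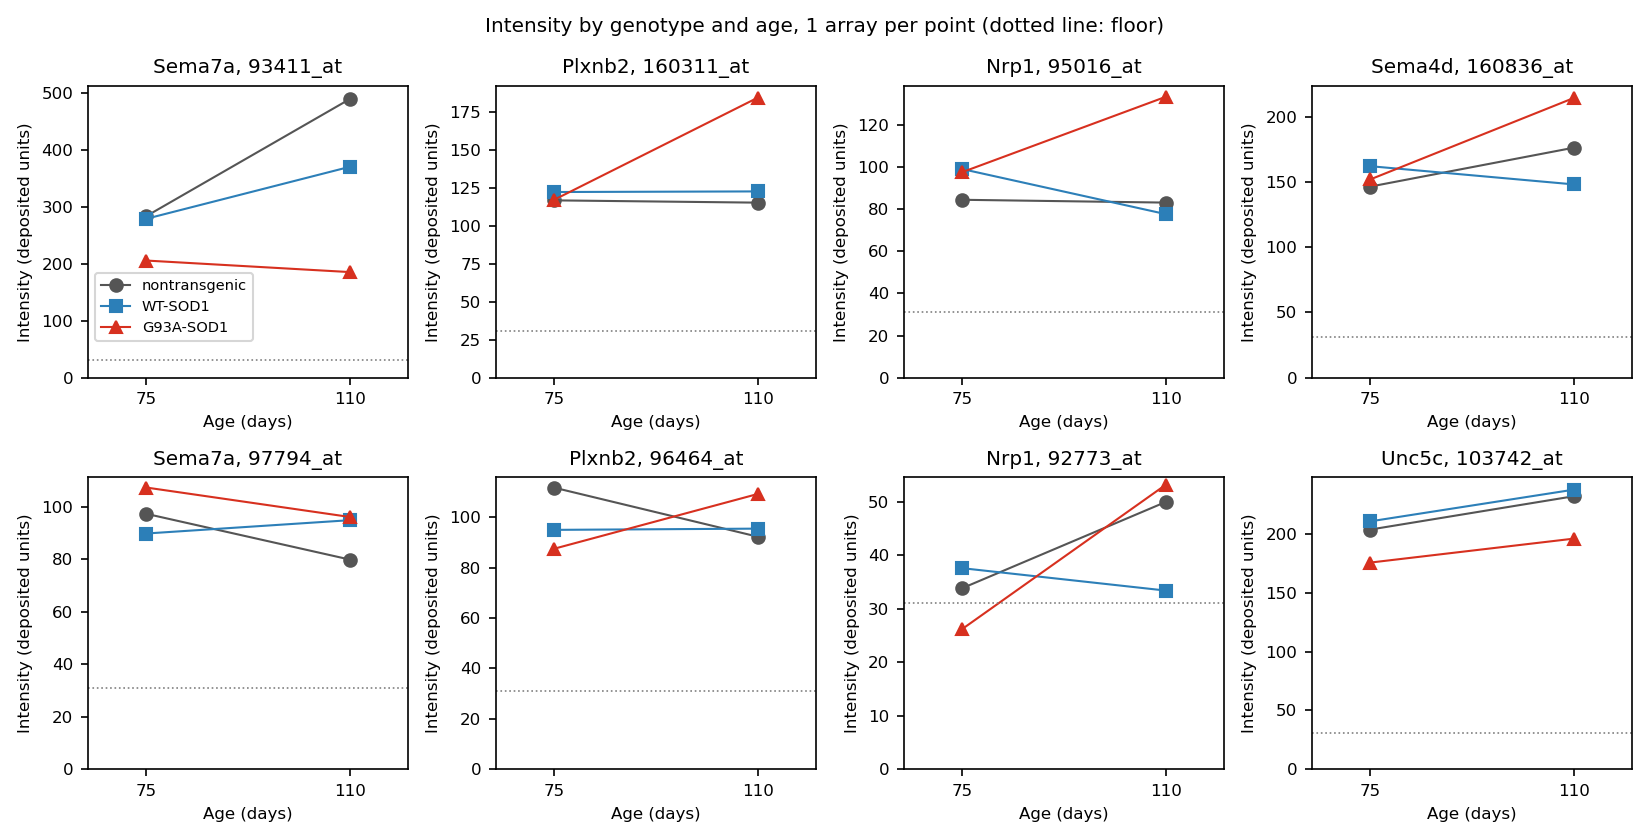
Intensity (deposited units, axis from 0) against age in days for 5 guidance genes, with 1 panel per probe set and 1 array per point. Circles are nontransgenic, squares WT-SOD1 and triangles G93A-SOD1, the dotted line is the floor of 31, and lines join arrays of a genotype. Sema7a probe set 93411_at is lowest on the G93A-SOD1 arrays, at 206 and 186, whereas 97794_at is not.

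No other semaphorin passed the test. Sema4d, a transmembrane ligand of B-type plexins, read 147, 162 and 152 on the nontransgenic, WT-SOD1 and G93A-SOD1 arrays at 75 days and 177, 148 and 215 at 110 days. The 110-day G93A-SOD1 array was above all 4 disease-free arrays, 1.22 times the nontransgenic and 1.45 times the WT-SOD1 level (log2 difference 0.41 ± 0.16 SE, limma adjusted p = 0.437). At 75 days the G93A-SOD1 value lay between those of the other genotypes.

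The class 6 semaphorins, which signal through A-type plexins, held some of the largest 75-day values, and none passed the test. Sema6c read 162, 186 and 128 on the nontransgenic, WT-SOD1 and G93A-SOD1 arrays at 75 days and 155, 150 and 170 at 110 days. Its G93A-SOD1 array was thus the lowest of its age at 75 days and the highest at 110 days, with log2 differences of -0.44 (adjusted p = 0.495) and 0.15 (adjusted p = 0.90) and a change of 0.59 (adjusted p = 0.657). Sema6b moved the other way: it read 137, 151 and 182 at 75 days and 163, 150 and 146 at 110 days. Its log2 differences were 0.34 at 75 days (adjusted p = 0.503) and -0.09 at 110 days (adjusted p = 0.977). Sema6a read 106, 94.9 and 112 at 75 days and 82.6, 92.6 and 103 at 110 days, so the G93A-SOD1 array was the highest of each age, with log2 differences from the disease-free mean of 0.16 and 0.24. Sema6d read 172, 148 and 136 at 75 days and 145, 134 and 139 at 110 days, with differences of -0.23 and -0.005.

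Across the 11 tested semaphorins log2 differences at 110 days ran from -1.20 to 0.41 with a median of 0.03, and 6 were above 0. At 75 days they ran from -0.45 to 0.34 with a median of -0.04, and 4 were above 0. The secreted Sema3b (0.15), the class 4 members Sema4a (0.03), Sema4b (0.09) and Sema4f (-0.08), and Sema5b (-0.01) stayed within 0.20 of 0 at 110 days. Of the 5 semaphorins that were not tested, the class 3 genes Sema3a, Sema3e and Sema3f read between 29.1 and 41.9, whereas Sema3c and Sema5a lay under the floor on every array.

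Among the semaphorin receptors the highest values at 110 days belonged to Nrp1 and Plxnb2. Nrp1, a co-receptor for class 3 semaphorins and for vascular endothelial growth factor, read 84.5, 99.1 and 97.7 on the nontransgenic, WT-SOD1 and G93A-SOD1 arrays at 75 days and 83.2, 77.7 and 134 at 110 days. The 110-day G93A-SOD1 array lay above all others, 1.60 times the nontransgenic and 1.72 times the WT-SOD1 level. The log2 difference was 0.73 ± 0.15 SE (95% interval 0.37 to 1.09) and missed the threshold (limma adjusted p = 0.0882). It was 0.68 without the WT-SOD1 and 0.78 without the nontransgenic 110-day array. A term for the arrays with higher spike-in levels brought it past the threshold (limma adjusted p = 0.0336). That term marks 1 array of each disease-free pair and raised the calls over all probe sets, so no result is read from this pass. The Nrp1 difference missed the threshold with no filter on level (0.469), arrays scaled to 1 median (0.179), a floor at the 40th percentile (0.159) and a WT-SOD1 term (0.102). The other Nrp1 probe set was dim: it read 33.8, 37.6 and 26.2 at 75 days and 49.97, 33.4 and 53.2 at 110 days, and was not tested. There the 110-day nontransgenic and G93A-SOD1 arrays were close to each other.

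Plxnb2, a receptor of class 4 semaphorins, read 117, 122 and 117 on the nontransgenic, WT-SOD1 and G93A-SOD1 arrays at 75 days. At 110 days it read 115, 123 and 184. The 5 arrays other than the 110-day G93A-SOD1 one thus lay close together, and the latter was 1.60 times the nontransgenic and 1.504 times the WT-SOD1 level. The log2 difference was 0.63 ± 0.13 SE (95% interval 0.32 to 0.95, limma adjusted p = 0.0932), and -0.03 at 75 days. The 110-day difference passed the threshold with the spike-in term (limma adjusted p = 0.0379), a pass not read as a result, as for Nrp1. Over 13 alternatives its adjusted p reached 0.255, while the log2 difference stayed between 0.59 and 0.68. The change between ages was 0.66 (adjusted p = 0.503). The other Plxnb2 probe set, 96464_at, read 112, 94.95 and 87.5 at 75 days and 92.2, 95.4 and 109 at 110 days, where the G93A-SOD1 array was the highest of its age but within the disease-free range (log2 difference 0.22, adjusted p = 0.774).

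Plxnd1, the plexin that binds Sema3e, read 96.0, 90.5 and 85.0 at 75 days and 85.8, 85.0 and 105 at 110 days. The 110-day G93A-SOD1 array lay above all 4 disease-free arrays (log2 difference 0.30 ± 0.13 SE, adjusted p = 0.504). The A-type plexins, the signalling partners of neuropilins, stood closer to 0: Plxna1 was at -0.15, Plxna2 at 0.05 and Plxna3 at -0.07. Plxna1 read 160, 148 and 140 at 75 days and 136, 144 and 126 at 110 days.

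Microglial genes rose on the array where Nrp1, Plxnb2, Sema4d and Plxnd1 were highest. Of the 10 microglia markers 9 were tested and 8 were called higher. Their summed intensity was 8051 on the G93A-SOD1 array at 110 days, 2128 at 75 days, and 1854 to 2335 on the disease-free arrays. Of 7 astrocyte markers 1 was called higher, Gfap, and the sum was 12260 against 8628 to 9739. Log2 differences of the 7 ran from -0.23 for S100b to 1.25 for Gfap, with Aqp4, not called, at 1.09 and a median of 0.08. The 6 endothelial markers, with 3 tested, gave 0 calls and summed to 645 against 650 to 691, with Tek under the floor on every array. The part of these cell types in the values of the guidance genes was not tested.

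The promoters of the called member and of the receptors with the highest 110-day values are shown for their base composition. RefSeq's table (GRCm38.p6) holds a 300-base window, 250 bases before to 50 after a start site, for 37 of the 44 members. Below are the 250 bases before the start, 5′ to 3′ on the gene's strand, for Sema7a, Plxnb2 (the first listed of 2 starts) and Nrp1. Capitals mark GGGCGG, the GC box bound by Sp factors, read on either strand:
Sema7a chr9:57939862-57940111 (+): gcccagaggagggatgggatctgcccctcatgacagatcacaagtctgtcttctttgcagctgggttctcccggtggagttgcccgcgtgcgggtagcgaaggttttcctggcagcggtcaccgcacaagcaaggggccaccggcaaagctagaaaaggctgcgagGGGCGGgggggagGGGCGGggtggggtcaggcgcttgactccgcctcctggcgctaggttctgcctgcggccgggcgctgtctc
Plxnb2 chr15:89180789-89181038 (-): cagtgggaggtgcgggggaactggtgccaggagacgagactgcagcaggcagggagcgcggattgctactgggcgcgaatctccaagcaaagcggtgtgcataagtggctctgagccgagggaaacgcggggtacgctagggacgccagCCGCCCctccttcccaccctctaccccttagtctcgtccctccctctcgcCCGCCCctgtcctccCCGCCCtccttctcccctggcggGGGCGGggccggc
Nrp1 chr8:128358823-128359072 (+): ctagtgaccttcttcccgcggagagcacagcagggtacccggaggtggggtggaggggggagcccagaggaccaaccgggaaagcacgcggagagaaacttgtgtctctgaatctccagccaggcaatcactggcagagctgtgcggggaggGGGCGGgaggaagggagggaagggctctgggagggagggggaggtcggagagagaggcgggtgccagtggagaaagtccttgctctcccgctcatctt
The stretch of Sema7a held 2 such boxes, that of Plxnb2 4 and that of Nrp1 1, at 66.4%, 69.2% and 64.4% GC. The CCAAT box, the TATA box motif TATAAA and the AP-1 motif TGANTCA, also searched on both strands, had 0 matches in these 3 stretches. Over the first listed windows of the 37 members, 75.7% held GGGCGG, against 59.3% of the windows of 6576 named genes of the array, and median GC was 64.3% against 60.0%. The CCAAT box was held by 27.0% against 38.3%, the TATA box motif by 2.70% against 10.4% and the AP-1 motif by 2.70% against 6.14%. The motifs can overlap one another and a match is a description of the letters only.

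**Figure D3:**
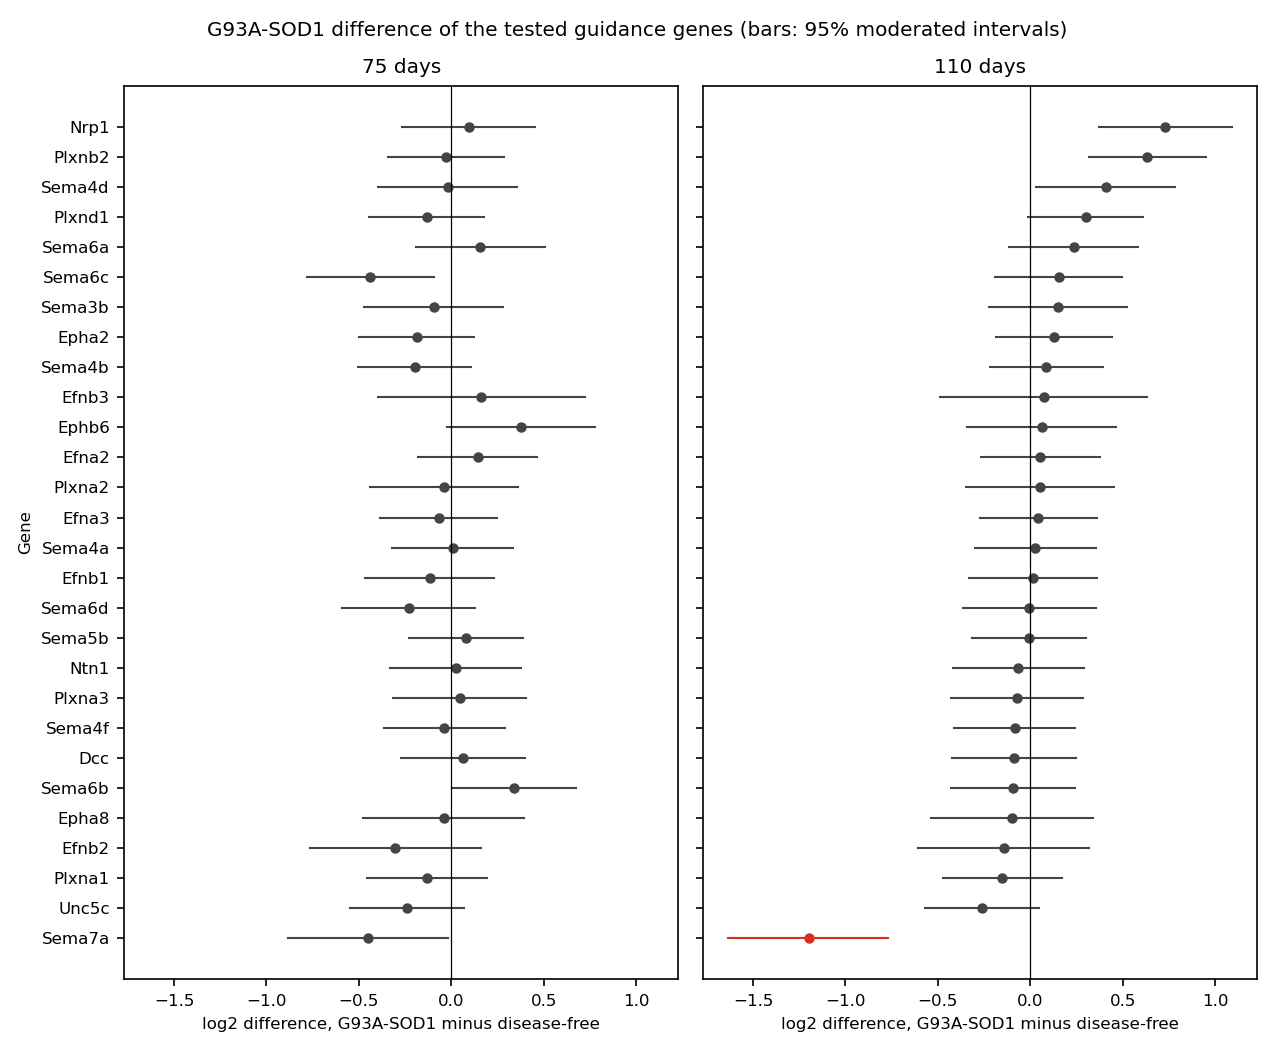
Log2 difference of G93A-SOD1 from disease-free cord (x axis) for the 28 tested guidance genes (y axis, ordered by the 110-day value) at 75 days (left) and 110 days (right). Points are limma estimates, bars 95% moderated intervals, and red marks an adjusted p under 0.05. Sema7a at 110 days, at -1.20, is the red point, and the interval of Nrp1 reaches 1.09.

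No gene of netrin signalling passed the test, and Unc5c stood farthest from 0. Unc5c, a receptor for repulsion by netrin, read 204, 211 and 176 on the nontransgenic, WT-SOD1 and G93A-SOD1 arrays at 75 days and 232, 238 and 196 at 110 days. Both G93A-SOD1 arrays lay below all 4 disease-free arrays. The log2 difference from the disease-free mean of the same age was -0.24 ± 0.13 SE at 75 days and -0.26 ± 0.13 SE at 110 days (limma adjusted p = 0.589 and 0.593). Sema7a and Unc5c were the 2 of 28 tested members with both G93A-SOD1 arrays below the disease-free range, where 15.6% of all tested probe sets had this pattern. In the other direction 0 of 28 members had it, against 6.23%. Dcc, the receptor for attraction, stood at 0.06 and -0.09 at 75 and 110 days, and Ntn1 itself at 0.02 and -0.07. Of the Slit receptors, Robo1 and Robo3 read between 48.1 and 73.3 and were not tested.

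Ephrins and Eph receptors gave 0 calls in any comparison. Ephb6, an Eph receptor whose kinase domain is inactive, read 125, 147 and 177 on the nontransgenic, WT-SOD1 and G93A-SOD1 arrays at 75 days and 119, 142 and 136 at 110 days. The 75-day G93A-SOD1 array was the highest of all 6 (log2 difference 0.38 ± 0.17 SE, limma adjusted p = 0.529), and the 110-day one lay between its controls. The other Ephb6 probe set had 0.10 at 75 days and -0.12 at 110 days. Efnb2, a transmembrane ligand of arteries and neurons, read 75.6, 64.9 and 56.8 at 75 days and 86.1, 65.3 and 67.9 at 110 days, so 1 array alone carried it past the filter. Its G93A-SOD1 array was the lowest at 75 days (log2 difference -0.30, adjusted p = 0.64).

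Efnb3, the ephrin of the cord midline, read 808, 911 and 960 at 75 days and 977, 648 and 836 at 110 days. The 110-day disease-free arrays were the lowest and the highest of all 6, so its SE of 0.24 was the largest of the tested members. Its log2 difference was 0.16 at 75 days and 0.07 at 110 days, and another probe set gave -0.10 and -0.01. Among the ephrin-A ligands, Efna2 read 126, 127 and 140 at 75 days and 111, 123 and 122 at 110 days (0.14 and 0.06), and Efna3 stood at -0.07 and 0.04.

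Epha8 read 88.2, 72.9 and 77.9 at 75 days and 69.1, 85.5 and 71.7 at 110 days, within the disease-free range on both G93A-SOD1 arrays. Its highest values came from nontransgenic cord at 75 days and WT-SOD1 cord at 110 days, the arrays with the higher spike-in and cerebellar levels. With a term for the higher spike-in levels its log2 difference turned from -0.10 to 0.05 at 110 days and from -0.04 to 0.10 at 75 days, while the part of the cerebellar markers was not tested. Epha2 stood at -0.19 and 0.13, and Efnb1 at -0.12 and 0.02 at 75 and 110 days. The other 9 ephrin and Eph genes, Efna1, Efna4, Efna5, Epha3, Epha4, Epha5, Epha6, Epha7 and Ephb3, did not pass the filter. Among them Efna5 and Epha3 lay under the floor on every array. Epha4, the receptor of Efnb3 at the midline, read 62.4 to 73.2 with the G93A-SOD1 arrays below the disease-free range at both ages. Its log2 difference from the disease-free mean of the same age was -0.06 at 110 and -0.18 at 75 days.

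In all, 16 members were not tested. Of these 9 lay above the floor on every array, 3 on some arrays and 4 on none, so no order can be read for the last. Their floored log2 differences ran from -0.15 to 0.19 at 110 days and from -0.30 to 0.15 at 75 days. Over all 44 members the median floored difference was 0.00 at 110 days and -0.03 at 75 days, and over all probe sets 0.00 at both ages.

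The comparison at 75 days asked which guidance genes differed before symptoms. None of the 28 passed the limma test, as was true of all tested probe sets (0%). At an unadjusted p under 0.05 there were 3 members, Sema6c and Sema7a lower and Sema6b higher, while 9.86% of all tested probe sets reached this. The median over the members was -0.04, equal to that of all tested probe sets, and 11 of 28 lay above 0, against 42.5% of all tested probe sets. At 110 days 4 members reached an unadjusted p under 0.05 (Sema7a lower, Nrp1, Plxnb2 and Sema4d higher), against 10.3% of all tested probe sets. On the 110-day G93A-SOD1 array 5 members (Nrp1, Plxnb2, Sema4d, Plxnd1 and Epha2) lay above all 4 disease-free arrays and 5 (Sema7a, Unc5c, Plxna1, Plxna3 and Sema4f) below, against 16.9% and 27% of all tested probe sets. On the 75-day array 5 lay above and 8 below, against 23.8% and 34.7%.

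**Figure D4:**
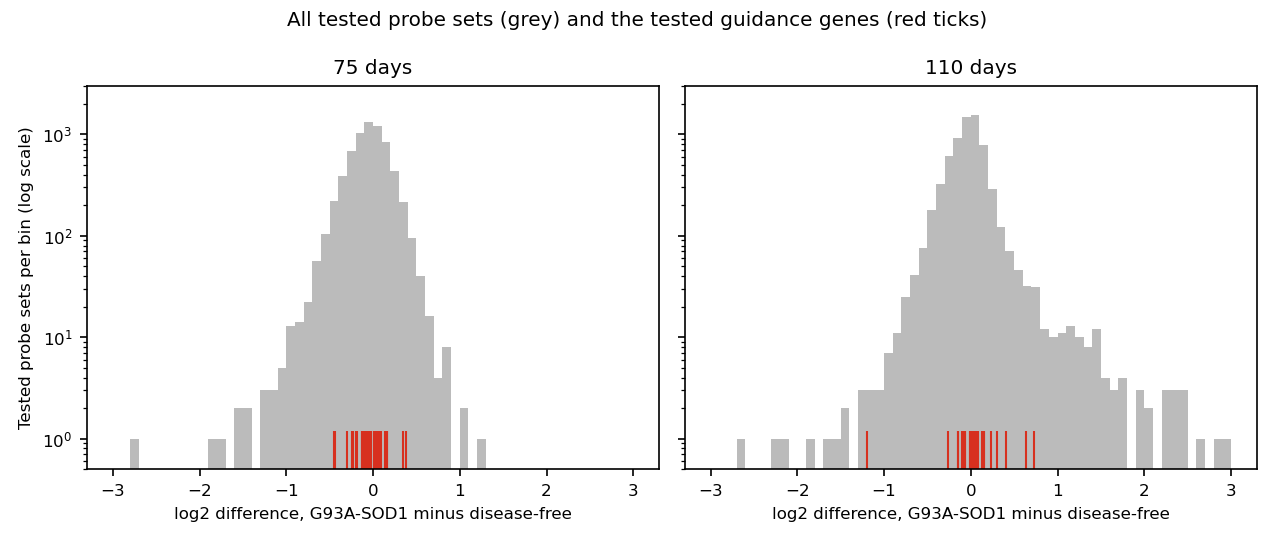
Histograms of the log2 difference of G93A-SOD1 from disease-free cord over the 6737 tested probe sets (grey, y axis on a log scale, bins of 0.1) at 75 days (left) and 110 days (right), with a red tick for each of the 28 tested guidance genes. At 110 days the ticks run from -1.20 to 0.73 and most lie near 0, inside the grey bulk.

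A test of the difference between the ages asked whether the G93A-SOD1 values at 110 days departed from those at 75 days. None of the 28 members passed, while 0.416% of all tested probe sets did. Plxnb2 (0.66), Nrp1 (0.64) and Sema6c (0.59) had the largest upward and Sema7a (-0.75) and Sema6b (-0.44) the largest downward changes, and the smallest limma adjusted p was 0.503. At an unadjusted p under 0.05 there were 4 members, against 6.23% of all tested probe sets. Sema7a passed without the WT-SOD1 110-day array, a setting that leaves 1 disease-free array at that age. That setting also raised the calls over all probe sets in the 110-day comparison, so no result is read from this pass.

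In disease-free cord most members read lower at 110 than at 75 days, without passing the test. The median log2 difference was -0.09, against -0.004 for all tested probe sets, and 7 of 28 members lay above 0, against 48.8%. None passed the limma test, and 0.0148% of all tested probe sets did. Sema7a had the largest difference, 0.60 ± 0.15 SE, higher at 110 days on both disease-free arrays (limma unadjusted p = 0.00507, adjusted p = 0.998). It was the 1 member with an unadjusted p under 0.05, which 3.1% of all tested probe sets reached. It passed without the WT-SOD1 110-day array, but that setting leaves 1 disease-free array at that age, so no result is read from this pass. Sema4a had the largest difference downward (-0.21).

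The effect of the wild-type transgene was read on the 4 disease-free arrays, in a fit that also held age. None of the 28 members passed the limma test (0.104% of all tested probe sets did), and 0 reached an unadjusted p under 0.05, against 1.17%. Differences ran from -0.31 for Efnb2 to 0.24 for Ephb6, and the median was 0.01. The SE was 0.19 for every probe set, so these p-values take no account of a gene's own spread. Sema7a stood at -0.21.

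Several genes had probe sets that differed in sign. Of the 12 members with more than 1 probe set, the sign at 110 days was opposite for Sema7a, Ephb6, Efnb3, Epha4 and 1 of the 2 further probe sets of Sema4b. At 75 days it was opposite for Sema7a, Efnb3, Nrp1, Ntn1 and the other Sema4b probe set. Apart from Sema7a at 110 days, none of these pairs held a called value.

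Other genes of guidance signalling came from a list of 82 further cues, receptors and signalling proteins, of which 51 had a probe set and 37 passed the filter. None was called in any comparison, where between 0% and 1.51% of all tested probe sets were called. At 110 days 19 of the 37 lay above 0, against 44.9% of all tested probe sets, and the median was 0.02, against -0.02. At 75 days 10 of the 37 lay above 0, against 42.5%, with a median of -0.19, against -0.04 for all tested probe sets. Chl1, a cell adhesion molecule that associates with Nrp1 in semaphorin signalling, read 83.5, 72.3 and 89.4 on the nontransgenic, WT-SOD1 and G93A-SOD1 arrays at 75 days and 69.6, 96.0 and 151 at 110 days. The last was the highest of all 6 arrays (log2 difference 0.88 ± 0.21 SE, limma adjusted p = 0.135). The difference was 1.115 without the WT-SOD1 and 0.65 without the nontransgenic 110-day array. It passed the threshold with the WT-SOD1 term (0.0113) or the spike-in term (0.0038). Both terms mark 1 array of each disease-free pair, so no result is read from these passes. The Chl1 difference missed the threshold with arrays scaled to 1 median (0.198), a floor at the 40th percentile (0.251) and no filter on level (0.67). The kinase gene Fyn stood at 0.39 (adjusted p = 0.604), at 0.63 without the nontransgenic 110-day array and at 0.16 without the WT-SOD1 one. Vasp, an actin regulator, stood at 0.38.

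At the low end were the actin-binding gene Ablim1, the Hedgehog receptor gene Ptch1 and Dpysl3 of the collapsin response mediators. Ablim1 read 105, 94.4 and 69.8 at 75 days and 107, 103 and 65.7 at 110 days, with both G93A-SOD1 arrays below the disease-free range (log2 difference -0.68 ± 0.14 SE at 110 days, limma adjusted p = 0.0882). Ptch1 read 338, 323 and 254 at 75 days and 369, 327 and 223 at 110 days, in the same order (-0.64 ± 0.14 SE, adjusted p = 0.111). Both passed with the spike-in term (limma adjusted p = 0.0391 and 0.0373), which is not read as a result, as for Nrp1. Over 13 alternatives adjusted p reached 0.363 for Ablim1 and 0.40 for Ptch1. Their log2 differences ran from -0.73 to -0.64 and from -0.73 to -0.55. Dpysl3 stood at -0.39 (adjusted p = 0.501), at -0.56 without the WT-SOD1 110-day array and at -0.22 without the nontransgenic one.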

How the data were processed

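The authors deposited 1 linear intensity per probe set for each of 6 Affymetrix arrays. Per the labels' protocols, poly(A) RNA of 4 cords was labelled with biotin and hybridised once; the sources used here name neither the probe summary nor the scaling. The table has 12488 rows, of which 66 are controls. Symbols came from the platform annotation (10833 probe sets with 1 symbol, 396 with several, 1193 with none), updated through Entrez identifiers (10817 matched, 0 changed). Medians of the deposited arrays were close, so values were used as given, floored at 31 and taken to log2.

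limma 3.58.1 in R 4.3.3 fitted 4 means (disease-free and G93A-SOD1 at each age) on 2 residual degrees of freedom, with prior degrees of freedom 5.13 and prior SD 0.12. WT-SOD1 was fitted on 4 arrays with age, on 1 residual degree of freedom. Adjusted p-values are Benjamini-Hochberg over 6737 probe sets, with 0.05 as threshold. The fit was run on simulated data with independent, equal noise on every array. Such data cannot show whether G93A-SOD1 arrays vary as much as the disease-free ones. The number of arrays limits the precision.

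Members and lists were chosen with earlier results of these data known. Members were described array by array when called, when both G93A-SOD1 arrays lay outside the disease-free range, or when among the 5 highest or lowest differences at either age. Of the pathway list, called genes and the 3 highest and 3 lowest at 110 days were named. Markers of oligodendrocytes (7 genes), their precursors (1), meninges (6), motor neurons (3), cerebellum (5) and muscle (3) gave 0 calls at 110 days. The 5 cerebellar log2 differences there ran from -2.63 (Gabra6, SE 1.16) to -0.30 (Pcp2). Summed muscle markers read 655 on the WT-SOD1 array at 75 days and 171 to 320.5 on the others. Of the 2 tested, Acta1 was called higher in WT-SOD1 than in nontransgenic cord (log2 difference 1.16), and Myl1 was not. The part of muscle markers in the guidance values was not tested. Schwann cell markers were not analysed here. Alternatives covered the floor, scaling, filter, left-out arrays, a WT-SOD1 term, a spike-in term and all probe sets of a gene.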

Additional observations from a re-analysis of the deposited data

How the results depend on the processing

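No paired analysis was possible because the labels give no replicate numbers and each genotype and age has 1 array. No alternative was added after the data were seen, and depth has no counterpart here, since dim genes are limited by the floor. Leaving out an array, a WT-SOD1 term and a spike-in term were not run for WT-SOD1 against nontransgenic, where they leave no residual degrees of freedom or repeat the contrast. In the cases below the cause was not tested.

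At 110 days the count of members called was 1, and it became 3 with a term for arrays with higher spike-in levels (Sema7a, Nrp1 and Plxnb2), 0 with arrays scaled to 1 median, 0 with the floor raised to the 40th percentile, and 0 without a filter. Over all probe sets these settings gave 266, 78, 66 and 42 calls, where the fit as reported gave 102. Leaving out 1 array gave 1 to 3 called members (3 without WT-SOD1 at 110 days, 2 without nontransgenic at 110 days), with 592 and 179 calls over all probe sets. For the change between the ages and for age in disease-free cord the range was 0 to 1, with Sema7a called in both without WT-SOD1 at 110 days. At 75 days 0 members were called under every alternative run. Genes called on the pathway list at 110 days were 0 as reported, 1 with a WT-SOD1 term, 3 with the spike-in term and 0 to 4 when 1 array was left out (4 without WT-SOD1 at 110 days, 2 without nontransgenic at 110 days).

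The median over the members at 110 days was 0.00 without a filter and -0.010 to 0.074 with 1 array left out. At 75 days it was 0.0047 after quantile normalization and -0.077 to -0.025 with 1 array left out.

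Of the values of single genes 527 kept their direction and side of the threshold, 16 passed the threshold anew, 3 lost it and 20 turned sign, all of these to values between -0.22 and 0.10. With the spike-in term Efnb3 stood at -0.12 at 110 and -0.029 at 75 days, Epha8 at 0.046 and 0.10, and Sema6d at 0.022 at 110 days. With the WT-SOD1 term Efnb3 stood at -0.033 at 110 days and Plxnb2 at 0.011 at 75 days. Sema4d at 75 days was 0.0051 with arrays scaled to 1 median and 0.015 after quantile normalization, which put Sema6d at 0.0040 at 110 days. With 1 array left out the 110-day values ran from -0.016 to 0.13 for Efna2, -0.22 to 0.37 for Efnb3, -0.25 to 0.054 for Epha8, -0.063 to 0.19 for Ephb6 and -0.062 to 0.052 for Sema6d. The 75-day values ran from -0.18 to 0.096 for Epha8, -0.022 to 0.21 for Nrp1, -0.062 to 0.0051 for Plxnb2, -0.093 to 0.053 for Sema4d and -0.0055 to 0.15 for Vasp.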
